A study of Homo sapiens with 2 samples.

Results

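The genes described are the 8 members of 3 small interferon-induced gene families: IFI6, IFI27, IFI27L1 and IFI27L2 of the FAM14 (ISG12) family, the paralogs IFI44 and IFI44L, and the partners IFI35 and NMI. They were picked by gene symbol from a deposited table of 63677 Ensembl genes, and each matched exactly 1 row. RNA was sequenced from 2 cultures of HGC-27, an established human gastric carcinoma cell line. The lncPSCA culture received pcDNA3.1-lncPSCA, an expression plasmid for the long non-coding RNA lncPSCA, and the control culture received the empty pcDNA3.1 vector. Both were transfected with the reagent INTERFERin and collected 48 hours later. Untransfected cells were not analysed here. There was 1 library per group: every difference is between 2 libraries, no test was possible and no p-value is given. The question put to the data is how these genes differ between cells given the lncPSCA plasmid and cells given the empty vector. The level of lncPSCA itself was not examined here.

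Type I and type III interferons signal through JAK kinases to a transcription factor complex named ISGF3, which binds interferon-stimulated response elements (ISREs) in promoters. IFI6, IFI27, IFI44, IFI44L and IFI35 are classical targets of that route. IFI6 and IFI27 encode small hydrophobic proteins of intracellular membranes, with reported roles in mitochondrial apoptosis and in restricting RNA viruses. IFI44 and IFI44L encode cytosolic proteins that are widely used as markers of an interferon response in blood and infected tissue. IFI35 and NMI bind each other through shared NMI/IFI35 domains, and NMI was first described as an interactor of N-myc and STAT proteins.

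The DNA just upstream of these genes is shown because it bears letters of the ISRE in some members and not in others. All 8 had a promoter window in RefSeq (GRCh38.p14), and the 250 bases before each listed start were searched on both strands for the ISRE-type pattern GAAANNGAAA. It was found for 5 of the 8 genes: IFI6 with 3 matches, IFI27 and IFI44L with 2 each, and IFI44 and NMI with 1 each. Of all 35116 listed windows of this length, 3.02% held it, or 3.71% of genes with at least 1 window. IFI35, IFI27L1 and IFI27L2 had no match, which says only that these letters were not in these windows. The pattern TTCNNNGAA, the core of the STAT-binding element known as GAS, stood in 6.57% of all windows (8.09% of genes) and in those of IFI27 and IFI35; in IFI27 it overlapped both ISRE-type matches. The stretches below are read 5′ to 3′ on the gene's strand, with matches in capitals (the ISRE-type pattern, or TTCNNNGAA for IFI35). For IFI44L 1 of the 2 matches is shown.
IFI6, chr1:27672256-27672368, minus strand: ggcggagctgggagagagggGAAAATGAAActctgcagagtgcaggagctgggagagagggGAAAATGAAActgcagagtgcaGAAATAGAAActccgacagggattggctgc
IFI27, chr14:94110608-94110670, plus strand: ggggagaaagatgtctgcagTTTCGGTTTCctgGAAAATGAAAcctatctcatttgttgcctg
IFI44, chr1:78649751-78649788, plus strand: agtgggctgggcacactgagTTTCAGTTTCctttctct
IFI44L, chr1:78620264-78620313, plus strand: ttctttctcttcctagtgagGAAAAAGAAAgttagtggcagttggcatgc
NMI, chr2:151289812-151289841, minus strand: ttaaagcagtTTTCTTTTTCactgtctttt
IFI35, chr17:43006752-43006780, plus strand: aggcagggatTTCACGGAAatgaaagtgg

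**Figure D1:**
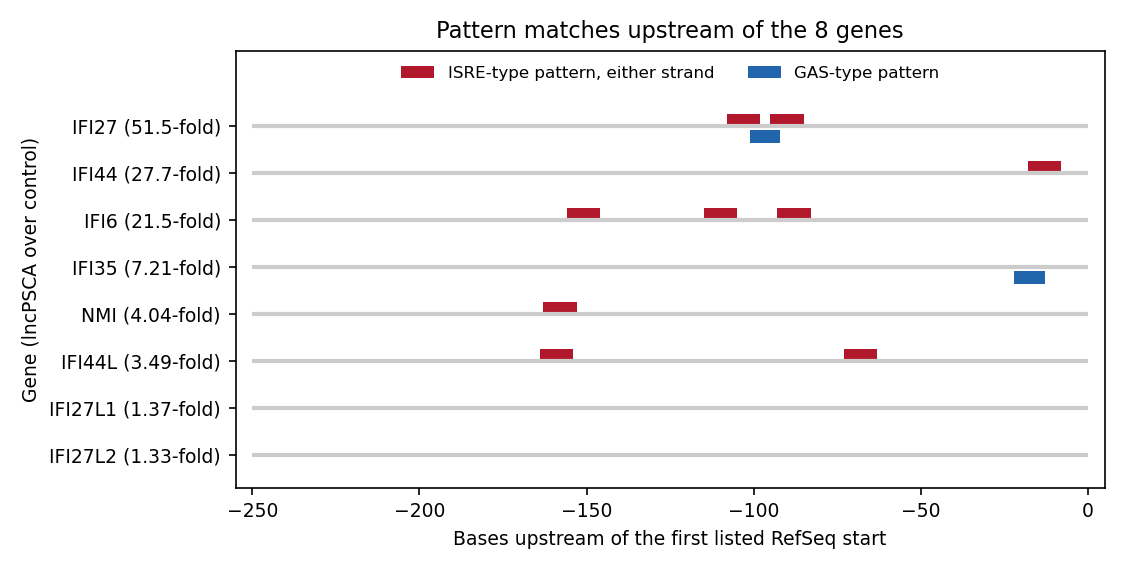
Positions of the ISRE-type pattern (GAAANNGAAA, either strand, red) and of the GAS-type pattern (TTCNNNGAA, blue) in the 250 bases upstream of the first listed RefSeq start of each gene; the horizontal axis is the distance from that start in bases, and genes run down the page from the highest fold to the lowest. IFI6 has 3 red matches, and IFI27L1 and IFI27L2 have none of either pattern.

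The lncPSCA library held 23016646 counts and the control library 21552098. Levels are reads scaled to library size by edgeR's TMM method (CPM), and intervals cover counting error only, at 95%. In the labelled gastric line the 6 gastric mucosa markers (MUC5AC, MUC6, TFF1, TFF2, GKN1, PGC) had at most 3 reads in the lncPSCA library and at most 4 in control, and TFF1, TFF2 and GKN1 were at 0 in both. The 6 epithelial markers summed to 5.57 CPM in lncPSCA and 6.78 CPM in control. The 4 mesenchymal markers summed to 2695 CPM in lncPSCA and 2649 CPM in control, nearly all of it VIM, vimentin, with 60997 reads in lncPSCA and 54877 in control; of the other measured ones, FN1 was higher (2.35-fold) and ZEB1 was at 1.82-fold and not called. Markers of blood cells, which could carry interferon-induced RNA of their own, summed to 3.998 CPM in lncPSCA and 3.981 CPM in control over 8 genes, with CD3E and LILRA4 at 0 in both libraries; the 4 endothelial markers summed to 0.553 CPM in lncPSCA and 0.237 CPM in control. In bulk RNA, a higher level in some cells and a higher level in every cell cannot be told apart.

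Of the 8 genes, 6 were higher in the lncPSCA library, none was lower, and 2 (IFI27L1 and IFI27L2) were called neither by a fixed rule of size. A gene was called higher or lower where its mean reached 1 CPM, its ratio reached 2-fold on the scale of counts plus 1, and its counting interval lay wholly beyond 1.5-fold. All 8 genes passed the CPM minimum. Over all 15440 measured genes the rule called 3.02% higher and 0.596% lower. The median log2 ratio of the 8 genes was 2.43, against -0.02 over all measured genes, and all 8 log2 ratios lay above 0, as did 48.1% of all measured genes. The genes called higher by at least 8-fold were IFI27, IFI44 and IFI6, 3 of the 8, against 0.434% of all measured genes. Together the 8 genes had 51897 reads in lncPSCA and 4012 in control, which is 0.225% (exact binomial interval 0.224 to 0.227%) and 0.0186% (0.0180 to 0.0192%) of all counts.

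**Figure D2:**
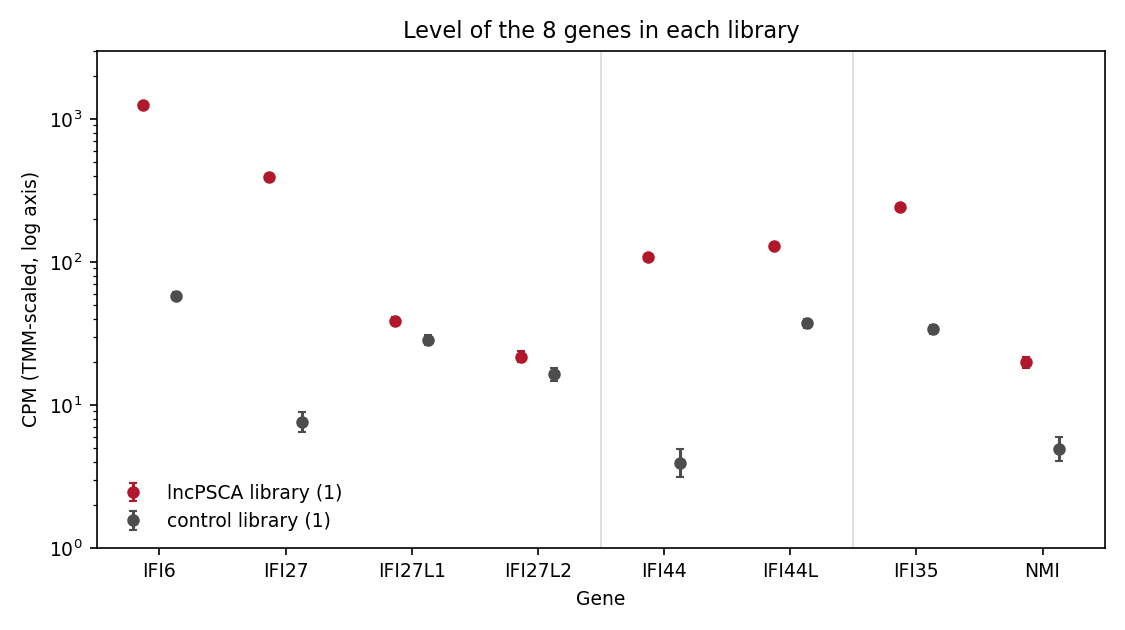
Level of each gene in CPM (vertical log axis) in the lncPSCA library (red, left of each pair) and the control library (grey, right of each pair), 1 library per group, with exact Poisson 95% intervals; vertical lines part the 3 families. The red point lies far above the grey one for IFI6, IFI27, IFI44 and IFI35, and close to it for IFI27L1 and IFI27L2.

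Within the FAM14 family, IFI6 (ENSG00000126709, chromosome 1), also known as G1P3, had the most reads in both libraries. IFI6 had 29430 reads in lncPSCA and 1226 in control, or 1252 CPM (1238 to 1266) and 58.1 CPM (54.9 to 61.5). The lncPSCA level was 21.5-fold that of control (20.3 to 22.8). This gene alone made up 59.2% of the CPM that the 8 genes gained, and its ratio ranked 34th among all measured genes. IFI6 shares bases with the antisense gene AL445490.1 (ENSG00000225886) on the opposite strand, though no exon bases in GENCODE release 29. That gene had 83 reads in lncPSCA and 8 in control, a fold of 9.31 (4.51 to 22.3). Whether counting used strand is not known from the sources used here, so reads of the antisense gene cannot be told apart from reads of unspliced IFI6.

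IFI27 (ENSG00000165949, chromosome 14), which encodes ISG12a, had the highest ratio of the 8 genes. It had 9235 reads in lncPSCA and 161 in control, or 393 CPM (385 to 401) and 7.63 CPM (6.50 to 8.90). The fold was 51.5 (44.0 to 60.5), ranked 13th among all measured genes. The fold of IFI27 was 2.39 times that of IFI6 (2.02 to 2.82). In lncPSCA there were 0.314 IFI27 reads for each IFI6 read, against 0.131 in control.

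IFI27L1 (ENSG00000165948) and IFI27L2 (ENSG00000119632), which lie on either side of IFI27 on chromosome 14 and encode proteins of the same family, fell short of the rule. IFI27L1 had 908 reads in lncPSCA and 596 in control, or 38.6 CPM (36.1 to 41.2) and 28.2 CPM (26.0 to 30.6), a fold of 1.37 (1.23 to 1.52). IFI27L2 had 512 reads in lncPSCA and 346 in control, or 21.8 CPM (19.9 to 23.7) and 16.4 CPM (14.7 to 18.2), a fold of 1.33 (1.16 to 1.53). Both counting intervals lay above 1, and both folds were far below that of IFI27. The fold of IFI27 was 37.7 times that of IFI27L1 (31.2 to 45.4) and 38.8 times that of IFI27L2 (31.5 to 47.7). Between the flanking genes the ratio of folds was 1.03 (0.868 to 1.22), an interval that includes 1. Their ranks by log2 ratio were 2472 and 2765 of 15440.

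The order of the FAM14 genes by reads therefore differed between the libraries. In lncPSCA, IFI6 held 73.4% (73.0 to 73.9%) of the family's 40085 reads, IFI27 23.0% (22.6 to 23.5%), IFI27L1 2.27% (2.12 to 2.42%) and IFI27L2 1.28% (1.17 to 1.39%). In control, IFI6 held 52.6% (50.6 to 54.7%) of 2329 reads, IFI27L1 25.6% (23.8 to 27.4%), IFI27L2 14.9% (13.4 to 16.4%) and IFI27 6.91% (5.92 to 8.02%). IFI27 had the fewest reads of the family in control and the second most in lncPSCA. No 50-base word of IFI6, IFI27L1 or IFI27L2 transcripts in GENCODE release 29 stood in transcripts of any other gene, and 1 of 4446 words of IFI27 did, so members of this family shared no words with each other at that length.

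IFI44 and IFI44L are neighbours on chromosome 1 and had unequal ratios. IFI44 (ENSG00000137965) had 2565 reads in lncPSCA and 83 in control, or 109 CPM (105 to 113) and 3.93 CPM (3.13 to 4.88). It was 27.7-fold higher (22.3 to 34.9) and ranked 27th by ratio. IFI44L (ENSG00000137959) had 3047 reads in lncPSCA and 783 in control, or 130 CPM (125 to 134) and 37.1 CPM (34.6 to 39.8). IFI44L was 3.49-fold higher (3.23 to 3.78) and ranked 142nd. IFI44L thus had many more reads than IFI44 in control, while in lncPSCA their reads were closer in number; read numbers of different genes also follow transcript length.

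The fold of IFI44 was 7.94 times that of IFI44L (6.30 to 10.0), a figure that does not depend on how the libraries are scaled. Of the reads of the IFI44 family, IFI44L held 54.3% (53.0 to 55.6%) in lncPSCA and 90.4% (88.3 to 92.3%) in control. Neither gene overlapped another gene in GENCODE release 29, and no 50-base word of either stood in transcripts of another gene. The exons annotated to IFI44L cover 10240 bases, against 2038 for IFI44. When log2 ratios were centred on genes of similar exon length, that of IFI44L was 1.59, against 1.80 uncentred, and it still met the rule.

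**Figure D3:**
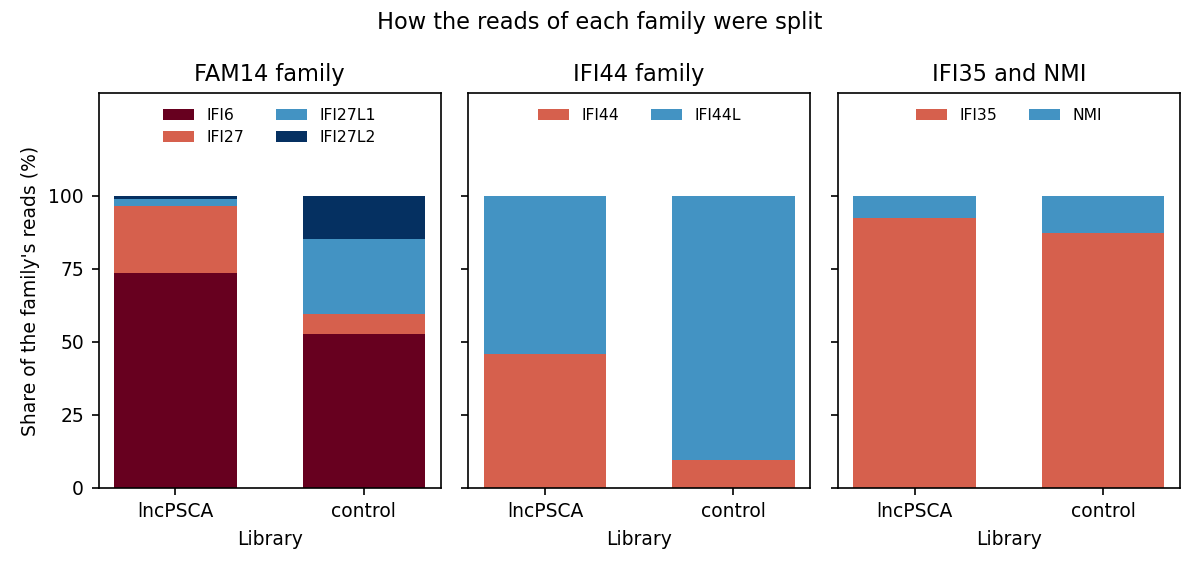
Share of each family's reads (vertical axis, %) held by each member in the lncPSCA library (left bar) and the control library (right bar) for the FAM14 family, the IFI44 family, and IFI35 with NMI. IFI44L takes 54.3% of its family's reads in lncPSCA and 90.4% in control, and IFI27 takes 23.0% in lncPSCA and 6.91% in control.

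IFI35 and NMI were both higher, by a smaller factor than IFI6, IFI27 and IFI44. IFI35 (ENSG00000068079, chromosome 17), a leucine zipper protein, had 5732 reads in lncPSCA and 713 in control, or 244 CPM (238 to 250) and 33.8 CPM (31.4 to 36.4). The fold was 7.21 (6.67 to 7.81), and its rank was 73rd. NMI (ENSG00000123609, chromosome 2) had 468 reads in lncPSCA and 104 in control, or 19.9 CPM (18.1 to 21.8) and 4.93 CPM (4.03 to 5.97). It was 4.04-fold higher (3.26 to 5.04) and ranked 121st.

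The fold of IFI35 was 1.79 times that of its partner NMI (1.42 to 2.24). There were 12.2 IFI35 reads for each NMI read in lncPSCA and 6.86 in control. Of the 50-base words of their transcripts, 2.60% for IFI35 and 0.936% for NMI also stood in transcripts of other genes, so a small part of their reads may be assigned differently by how multiply mapped reads were treated. By ratio, NMI was close to IFI44L: the ratio of their folds was 1.16 (0.922 to 1.45), an interval that includes 1. For IFI44 over IFI6 the ratio of folds was 1.29 (1.03 to 1.61), an interval that excludes 1. The 5 genes with the ISRE-type pattern printed above (IFI6, IFI27, IFI44, IFI44L and NMI) were among the 6 higher genes, with folds of 3.49 to 51.5; of the genes without it, IFI35 was higher and IFI27L1 and IFI27L2 were not called. This is a description of 8 genes, and whether the pattern takes part was not tested.

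**Figure D4:**
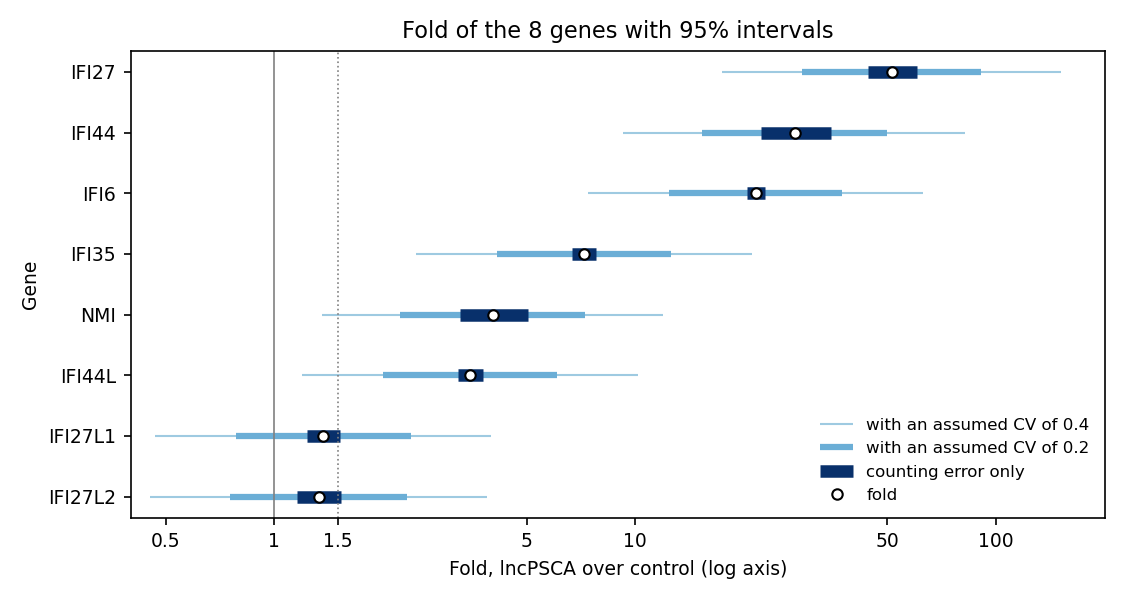
Fold of each gene, lncPSCA over control (horizontal log axis), with its 95% counting interval (dark bar) and intervals widened by an assumed coefficient of variation between cultures of 0.2 (medium bar) and 0.4 (thin line); the dotted line is 1.5-fold. IFI27, IFI44, IFI6 and IFI35 stay beyond 1.5-fold under both assumptions, IFI44L and NMI under 0.2, and the intervals of IFI27L1 and IFI27L2 include 1 under both.

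The spread between cultures was not measured, so the intervals were also widened by assumed values of it. With a coefficient of variation of 0.2, the lower ends for the 6 higher genes ran from 2.005 for IFI44L to 29.01 for IFI27, and all 6 met the rule. With 0.4, IFI44L (lower end 1.20) and NMI (1.35) fell short of it, and IFI27, IFI44, IFI6 and IFI35 still met it. For IFI27L1 the interval ran from 0.782 to 2.39 with 0.2, and for IFI27L2 from 0.754 to 2.34. A difference of the size seen for those 2 genes would thus not stand out from such a spread.

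Read numbers of different genes follow their length, so levels were set in order as CPM per kilobase of exon (RPKM). In the lncPSCA library the order was IFI6 (1447 RPKM), IFI35 (124), IFI27 (94.7), IFI44 (53.5), IFI27L1 (16.2), IFI27L2 (13.1), IFI44L (12.7) and NMI (5.72). Of these, the neighbours IFI27L2 and IFI44L had overlapping counting intervals. In control the order was IFI6 (67.2 RPKM), IFI35 (17.1), IFI27L1 (11.9), IFI27L2 (9.87), IFI44L (3.62), IFI44 (1.93), IFI27 (1.84) and NMI (1.42). There the intervals of IFI27L1 and IFI27L2 overlapped, as did those of IFI44, IFI27 and NMI with each other. IFI6 ranked 14th among all measured genes with a length in lncPSCA and 775th in control.

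These levels depend on which transcript is taken. The exons annotated to IFI27 cover 4147 bases, while its longest coding transcript measures 725. Per length of the longest coding transcript, IFI27 came to 542 RPKM in lncPSCA, above IFI35 at 196, and to 10.5 RPKM in control, above IFI44L at 6.32. On that measure IFI27L1 and IFI27L2, at 35.1 and 29.5 RPKM, lay above IFI35 at 27.2 in control. IFI6 led on both measures in both libraries.

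Among chromosomal neighbours of the 8 genes, RBM43 and RIF1 beside NMI were higher. The 2 nearest protein-coding genes on each side of each member, in the order of GENCODE release 29, gave 20 genes that were not members, of which 13 reached the CPM minimum and 7 did not. Of the 13, 2 were called higher (3.02% of all measured genes were), 11 were called neither and none lower, with a median log2 ratio of 0.01. Next to IFI35, the ribosomal protein gene RPL27 had 1126 CPM in lncPSCA and 1325 CPM in control, and VAT1 had 248 CPM in lncPSCA and 255 CPM in control. DDX24, an RNA helicase gene that adjoins IFI27L1, had 262 CPM in lncPSCA and 282 CPM in control. IFI6 stood between genes with log2 ratios of -0.42 (AHDC1), -0.20 (FAM76A) and -0.34 (STX12).

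The higher neighbours were both at NMI. RBM43, which encodes an RNA-binding protein, had 247 reads in lncPSCA and 79 in control and was 2.81-fold higher (lower end 2.17). RIF1, which encodes a factor of DNA repair and replication timing, had 755 reads in lncPSCA and 272 in control and was 2.49-fold higher (lower end 2.17). Between NMI and RIF1 lies TNFAIP6, with 2 reads in lncPSCA and 0 in control. RND3, beyond RBM43, was at a log2 ratio of 0.12. The exons annotated to RIF1 cover 18166 bases, and centring on genes of similar length brought its log2 ratio to 1.10, against 1.31 uncentred. RIF1 was no longer called under a coefficient of variation of 0.2, and neither gene was under 0.4.

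**Figure D5:**
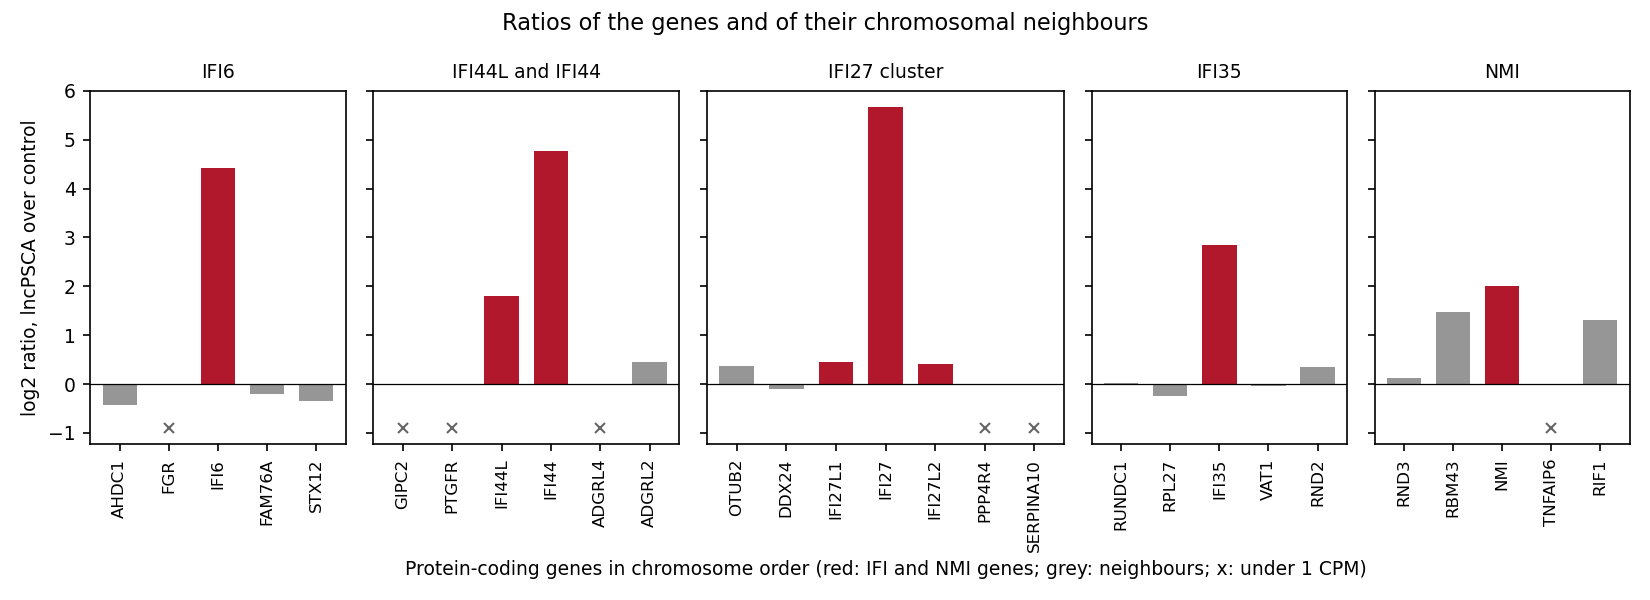
Log2 ratio of lncPSCA over control (vertical axis) for the 8 genes (red) and their nearest protein-coding neighbours (grey) in chromosome order at each of 5 loci; a cross marks a neighbour with a mean under 1 CPM, for which no bar is drawn. RBM43 and RIF1 beside NMI are the only grey bars above a log2 ratio of 1.

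Of the ISGF3 pathway described above, STAT2 and IRF9, which encode subunits of ISGF3, and the feedback genes USP18 and SOCS1 were higher. No receptor or kinase gene was called, and whether the pathway acted on the 8 genes in these cultures was not tested. From a list of 19 ligands, receptors, kinases, transcription factors and inhibitors, 17 were measured. Of these, 8 were called higher (3.02% of all measured genes were), 9 neither and none lower, with a median log2 ratio of 0.93. Among ligands, IFNB1 (interferon beta) had 132 reads in lncPSCA and 1 in control, a ratio of 118 (20.9 to 4714). IFNL1 (interferon lambda 1) had 96 reads in lncPSCA and 2 in control, a ratio of 43.1 (11.6 to 361). IFNL2 and IFNL3, with 19 and 12 reads in lncPSCA and none in control, did not reach the CPM minimum, and these near-identical genes may share reads. The receptor genes IFNAR1, IFNAR2 and IL10RB had folds of 1.01, 0.738 and 0.749, and IFNLR1, of the interferon lambda receptor, had 1.91 (1.56 to 2.36).

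The kinase genes JAK1 and TYK2 had folds of 1.12 and 1.10. STAT2 had 6616 reads in lncPSCA and 749 in control, 7.93-fold higher (7.35 to 8.56). IRF9, the DNA-binding subunit, had 98 reads in lncPSCA and 27 in control, 3.26-fold higher (2.11 to 5.19), and was not called under an assumed coefficient of variation of 0.4 or a minimum of 5 CPM. Of the feedback inhibitors, USP18 was 10.8-fold higher (9.79 to 11.9) and SOCS1 4.81-fold (3.31 to 7.21), while SOCS3 had 240 reads in lncPSCA and 236 in control. With a minimum of 5 CPM, SOCS1, IFNB1 and IFNL1 were not called either. IRF1 was 2.79-fold higher (2.51 to 3.11) and was not called under that assumed coefficient of 0.4, where 6 of the listed genes were higher. IRF3 and IRF7, with folds of 1.08 and 0.859, were not called. The folds of IFI27, IFI44 and IFI6 exceeded that of STAT2, and those of NMI and IFI44L lay below it.

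Among genes of partners that have been reported for the proteins, PLSCR1, TRIM21, RIGI and BRCA1 were higher. Of 16 listed genes, 13 were measured: 4 were called higher (3.02% of all measured genes were), 9 neither and none lower, with a median log2 ratio of 0.02. HSPA5, the endoplasmic reticulum chaperone BiP reported to act with IFI6, had 641 CPM in lncPSCA and 733 CPM in control, a fold of 0.874 (0.854 to 0.894). SKP2, a ubiquitin ligase subunit linked to IFI27, had a fold of 0.815 (0.767 to 0.866), and C1QBP one of 0.758 (0.736 to 0.780). FKBP5, a chaperone reported to bind IFI44 and IFI44L, had 113 CPM in lncPSCA and 112 CPM in control. MYC, a relative of the N-myc for which NMI is named, had 483 CPM in lncPSCA and 370 CPM in control, a fold of 1.31 (1.27 to 1.35).

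The partner genes that were higher are mostly interferon-stimulated genes themselves. PLSCR1, a phospholipid scramblase, was 7.91-fold higher (7.19 to 8.72), and TRIM21, a ubiquitin ligase linked to NMI and IFI35, was 5.36-fold higher (4.73 to 6.09). RIGI, the RNA sensor that IFI35 has been reported to restrain, had 4883 reads in lncPSCA and 95 in control, 46.1-fold higher (37.7 to 57.1). BRCA1 was 2.10-fold higher (1.89 to 2.33), but was not called under either assumed spread or when centred along exon length. TLR4, a receptor reported to sense extracellular NMI and IFI35, had no reads in either library, which allows up to 0.128 CPM in lncPSCA and 0.142 CPM in control.

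Set beside other interferon-stimulated genes, the 6 higher members spanned a wide range of ratios. In a comparison list of 18 such genes, 17 were measured and 17 were higher (3.02% of all measured genes were), with a median log2 ratio of 4.98. In a list of 11 genes that share the IFI prefix but belong to other families, 9 were measured and 9 were higher, against the same 3.02%, with a median of 4.31. IFI27 (5.68), IFI44 (4.78) and IFI6 (4.43) lay above this second median, and IFI35 (2.85), NMI (2.004) and IFI44L (1.80) below it. Only IFI27 of the 8 genes lay above the median of the first list. Both lists were chosen with earlier results of these data known, so their counts and medians are not independent of the data. The first list had 16 higher genes under upper-quartile scaling or an assumed coefficient of variation of 0.2. It had 15 under a coefficient of 0.4 and 14 with a minimum of 5 CPM, where the second list had 8 and 7. The listed genes that were not measured were EPSTI1, with no reads in either library, IFI30, a lysosomal thiol reductase, with 3 reads in lncPSCA and 4 in control, and IFITM10, with 6 reads in lncPSCA and 9 in control.

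For each higher member, the other gene nearest in log2 ratio was found among 11653 candidates whose mean reached 5 CPM; with 2 libraries, likeness means only a near-equal ratio. Beside IFI6 (4.43) stood PARP14 (4.42), an ADP-ribosyltransferase gene, and beside IFI27 (5.68) stood DDX60 (5.67), a helicase gene. IFI44 (4.78) was matched by SHFL (4.77), which encodes an inhibitor of ribosomal frameshifting. IFI44L (1.80) was nearest to SESN2 (1.81), a stress-response gene, IFI35 (2.85) to the complement gene C4A (2.84), which has a near-identical copy, and NMI (2.004) to the potassium channel gene KCNN1 (2.02).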

How the data were processed

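The authors deposited raw counts of reads for each Ensembl gene, 1 column per library, and the 2 columns were used as deposited. The submitters' processing notes name TopHat2, HTSeq and the build hg19 but no version or setting. Annotation release, strandedness, library kit and the treatment of multiply mapped reads: not given in the sources used here. Symbols came from a table that matched 81.9% of identifiers; the 8 members all matched. Neighbours, overlaps, exon lengths and transcripts came from GENCODE release 29 (GRCh38, a build other than the authors'), by gene identifier; 97.1% of measured genes had a length. Promoter windows came from RefSeq (GRCh38.p14); bases after the start were not searched, and printed stretches lie outside annotated exons of the gene or hold at most 30 bases.

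CPM used library sizes scaled by TMM (edgeR 4.0.16; factors 1.02 for lncPSCA and 0.979 for control). Folds are CPM ratios with exact Clopper-Pearson intervals; log2 ratios use counts plus 1 scaled to library size, which understates low genes; ratios of folds carry a log-normal interval from the 4 counts. No molecular identifiers were counted, so reads are not independent molecules and all intervals are minimal. A zero count was read as up to 3 counts. The size rule was tested on simulated data. The members, lists and rules were chosen with earlier results of these data known. Named genes were the members, list genes that met the rule, neighbours and nearest-ratio genes; others were named after their values were seen, and 1 listed gene is not reported here. Alternatives tried were total counts, upper-quartile scaling, size factors of DESeq2 1.42.0, other pseudocounts (0.5, 5) and CPM minimums (none, 5), assumed coefficients of variation, and centring along mean CPM in 20 bins or exon length in 10 bins.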

Additional observations from a re-analysis of the deposited data

How the results depend on the processing

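No paired analysis was possible because each group has 1 library; for the same reason no library could be left out. Of 56 log2 ratios of the 8 genes over the 7 alternatives that can move a ratio (scaling, pseudocount and centring), none changed sign and 52 stayed inside the main counting interval. The others were IFI6 (4.58) and IFI35 (3.01) centred along mean CPM, and IFI35 (2.99) and IFI44L (1.59) centred along exon length. The number of members called higher was 6 under every alternative but an assumed coefficient of variation of 0.4, where it was 4, and none was called lower. IFI27L1 ran from 0.43 to 0.57 and IFI27L2 from 0.38 to 0.55, and both met the rule under none. Over all genes, without a CPM minimum 150 were lower (92 in the main setting); with a minimum of 5 CPM, 284 were higher (467 in the main setting) and 46 lower, and 4 genes of the ISGF3 list were higher (8 in the main setting), since fewer genes are then measured. When cultures were assumed to vary by a coefficient of 0.2, 212 were higher and 27 lower, and with 0.4, 105 and 5; these intervals are wider by construction. Lists and neighbours were put through the same alternatives after the data were seen. Depth limits NMI and IFI44 most among the 6 higher members, with 104 and 83 control reads.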
